A study of Homo sapiens with 11 samples.

Results

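In MDA-MB-231 cells without mdig, a line of triple-negative breast cancer, the stretches of chromatin enriched for H3K9me3 were compared with those enriched for H4K20me3. Both lists came from chromatin immunoprecipitation and sequencing (ChIP-seq) of KO cells. All intervals of the 2 lists on chromosomes 1 to 22 and X were taken: 53375 for H3K9me3 and 25318 for H4K20me3, together 78693 of 229591 intervals in the 10 lists of the series. Mdig, also called MINA53 or RIOX2, is a JmjC-domain oxygenase. The KO cells were made with CRISPR-Cas9 and had lost mdig protein per the labels' protocols, while WT cells, which went through the same work, had normal levels. Both were grown in DMEM/F-12 medium with serum, antibiotics and blasticidin. The labels do not say whether the KO cells are 1 clone, and these lists hold no expression values against which to check the cell type. There was 1 library per antibody and genotype, so nothing below was tested, and every value describes these libraries.

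H3K9me3 is the mark of constitutive heterochromatin. It is placed by SUV39H1, SUV39H2 and SETDB1 and is bound by the HP1 proteins. HP1 in turn brings in KMT5B and KMT5C, the enzymes that trimethylate H4K20, so that H4K20me3 is known as a mark laid down on chromatin that already carries H3K9me3. Repeats, regions beside centromeres and telomeres, and the clusters of KRAB zinc finger genes are the places for which this pair of marks is best known.

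An interval here is a stretch that the authors' caller reported as enriched, on a grid of 200 bp, with no height or score. H3K9me3 intervals covered 305.7 Mb, or 10.4% of the span between the outermost intervals of each chromosome. H4K20me3 intervals covered 149.6 Mb, or 5.08%. The median interval spanned 3.4 kb for H3K9me3 and 4.0 kb for H4K20me3. The widest interval was 292.8 kb for H3K9me3 and 204.6 kb for H4K20me3. The depth of the libraries is unknown, and fewer marked cells cannot be told apart from less mark per cell. Wilson 95% intervals given below cover counting error only. The list of the MINA antibody held 7859 intervals in KO and 16353 in WT.

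The relation between the marks was uneven in the 2 directions. Of the H4K20me3 intervals 68.5% overlapped H3K9me3 by at least 1 bp (95% interval 68.0% to 69.1%), and of the H3K9me3 intervals 25.8% overlapped H4K20me3 (25.5% to 26.2%). These 2 shares are the background for the classes described below. In length, 90.8 Mb carried both marks. That was 60.7% of the H4K20me3 length and 29.7% of the H3K9me3 length, so 214.9 Mb had H3K9me3 alone and 58.8 Mb H4K20me3 alone. The lists of active chromatin met H3K9me3 far less often in the same cells. H3K4me3, the mark of active promoters, overlapped it in 5.57% of its intervals (5.24% to 5.91%). H3K36me3, which lies over transcribed gene bodies, did so in 8.24% (7.85% to 8.65%).

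The part of H3K9me3 that also carried H4K20me3 rose with the width of the H3K9me3 interval in each of 6 width classes. Under 2 kb, 10.0% of 11175 H3K9me3 intervals overlapped H4K20me3 (9.47% to 10.6%). From 2 to under 5 kb it was 19.1% of 24707 (18.6% to 19.6%), and from 5 to under 10 kb 34.1% of 11335 (33.2% to 34.96%). From 10 to under 20 kb it was 55.6% of 4150 (54.1% to 57.1%). From 20 to under 50 kb it was 85.1% of 1614 (83.3% to 86.8%), and among the 394 intervals of 50 kb or more all except 2 overlapped H4K20me3, or 99.5% (98.2% to 99.9%). The classes under 5 kb thus lay below the 25.8% of the whole list and the 4 wider classes above it. A wider interval has more room for an overlap, so the covered length was compared as well.

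By length the same order held. H4K20me3 covered 9.39% of the H3K9me3 length in intervals under 2 kb, 15.6% from 2 to under 5 kb and 21.9% from 5 to under 10 kb. It covered 27.7% from 10 to under 20 kb, 44.1% from 20 to under 50 kb and 72.5% at 50 kb or more. Active marks had no such order on the same intervals. H3K4me3 of KO cells covered between 0.576% and 0.930% of the H3K9me3 length in the 6 classes, and H3K36me3 between 1.89% and 2.88%. The WT list of H3K9me3 did share it, covering 32.8% of the narrowest class and 78.5% of the widest. H4K20me3 of WT cells covered 3.86% of the narrowest class and 12.1% of the widest. Between them, from 2 to under 50 kb, it stayed between 6.45% and 8.02% with no steady rise.

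**Figure D1:**
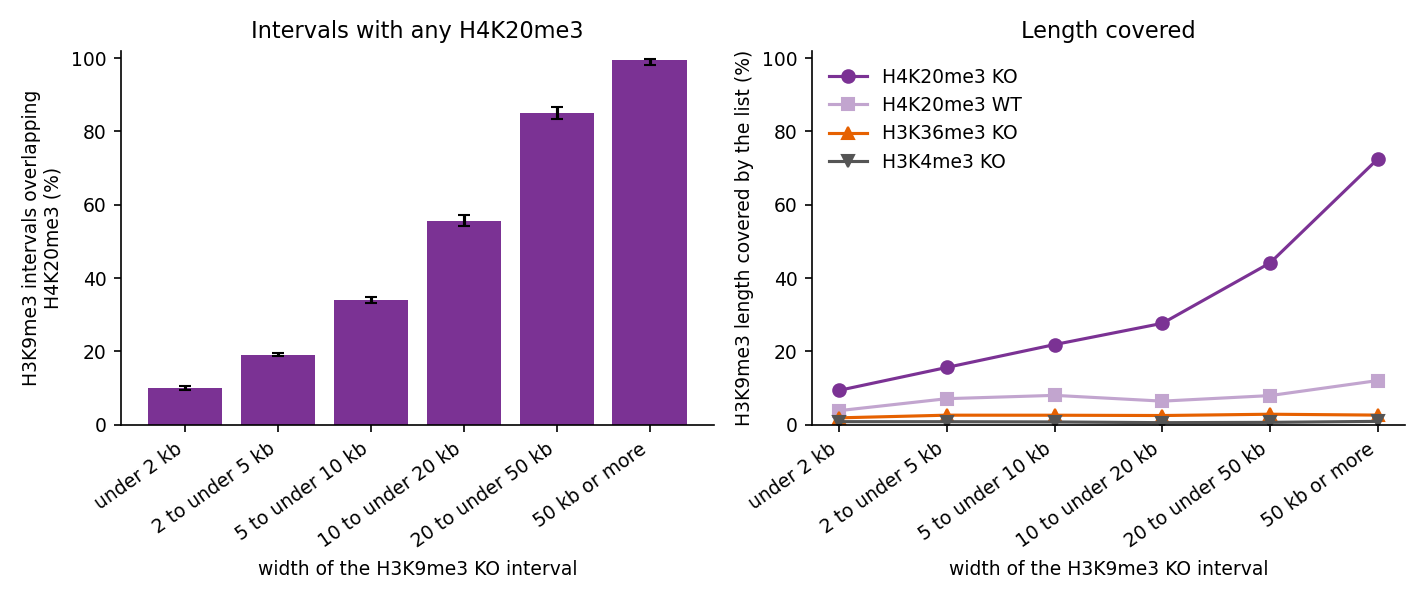
Overlap of H3K9me3 KO intervals with H4K20me3 by width of the H3K9me3 interval. Left, bars give the percentage of H3K9me3 intervals with any H4K20me3 KO interval, with Wilson 95% intervals, rising from 10.0% to 99.5%. Right, points give the percentage of H3K9me3 length covered by 4 lists, which for H4K20me3 KO rises from 9.39% to 72.5% and for H3K4me3 KO stays below 1%.

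Few wide intervals held much of the doubly marked chromatin. The 2008 H3K9me3 intervals of 20 kb or more were 3.76% of the list and 26.2% of its length, yet 49.5% of the length with both marks lay in them. H4K20me3 covered 56.0% of their length and 20.3% of the length of the 51367 narrower ones. In the class of 50 kb or more the covered part of single intervals had a median of 77.1% and quartiles of 54.1% and 88.4%, and only 3 were covered from end to end. Among all H3K9me3 intervals under 2 kb the median covered part was 0%, and among those that overlapped H4K20me3 at all it was 100%. An interval that narrow has little room to be covered in part, so the 100% cannot be compared with the wide class. The order by covered length depends on how interrupted intervals are treated. When intervals within 5 kb were joined in both lists, H4K20me3 covered 15.7%, 26.3%, 29.4%, 21.8%, 16.2% and 33.1% of the 6 classes from narrow to wide, which is no steady rise. The share of intervals with any overlap still rose from 16.2% to 86.4%.

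WT cells gave lower values in the same classes of their own H3K9me3 list, with a rise as well. There H4K20me3 covered 3.30% of the H3K9me3 length under 2 kb and 33.8% at 50 kb or more, and 68.1% of the 163 widest intervals overlapped H4K20me3 (60.6% to 74.8%). The WT list of H4K20me3 held 8539 intervals against 25318 in KO, which moves with these shares. The part of list size in the difference was not tested.

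Seen from H4K20me3, width made less difference. Of the 3932 intervals under 2 kb 64.1% overlapped H3K9me3 (62.6% to 65.6%), against 68.5% of the whole list. The share was 81.2% of the 796 intervals from 20 to under 50 kb (78.3% to 83.7%) and 54 of the 60 intervals of 50 kb or more, or 90% (79.9% to 95.3%). The part of the H4K20me3 length on H3K9me3 ran from 57.2% to 63.0% in the 5 classes under 50 kb and was 77.5% in the widest. H4K20me3 intervals off H3K9me3 were almost as wide as those on it, with medians of 3.8 kb and 4.0 kb. For H3K9me3 the medians were 3.0 kb without and 5.8 kb with H4K20me3.

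Nesting was mostly in 1 direction, with H4K20me3 lying within H3K9me3. The H3K9me3 list covered more, at 305.7 Mb against 149.6 Mb, and the part of that in this direction was not tested. Of the 17354 H4K20me3 intervals that overlapped H3K9me3, 65.9% lay inside a wider H3K9me3 interval without a base outside it. A further 16.1% contained at least 1 whole H3K9me3 interval and lay in none, 16.3% crossed an edge of H3K9me3, and 1.74% (302 intervals) had the same start and end as an H3K9me3 interval. Counted over all H4K20me3 intervals, 11428 lay inside (45.1%), 2790 contained (11.02%) and 2834 crossed (11.2%). Of the length with both marks 69.3% belonged to H4K20me3 intervals lying inside H3K9me3. From the side of H3K9me3, 7909 intervals contained whole H4K20me3 intervals and 2946 lay inside one. The share of H3K9me3 intervals inside H4K20me3, equal edges included, was 6.09%, and it rose to 11.1% when intervals within 5 kb were joined and to 11.8% when 1 kb of overhang was allowed on each side. For H4K20me3 inside H3K9me3 the corresponding shares were 46.3%, 44.3% and 56.8%.

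The order of containment turned with the width of H3K9me3. Under 2 kb, 5.23% of H3K9me3 intervals lay inside H4K20me3 and 1.93% contained it. From 2 to under 5 kb 6.12% lay inside and 7.52% contained, and from there containment grew to 20.04%, 45.8%, 79.5% and 97.2% of the classes. A narrow interval has little room to hold another, and this order was not corrected for it.

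**Figure D2:**
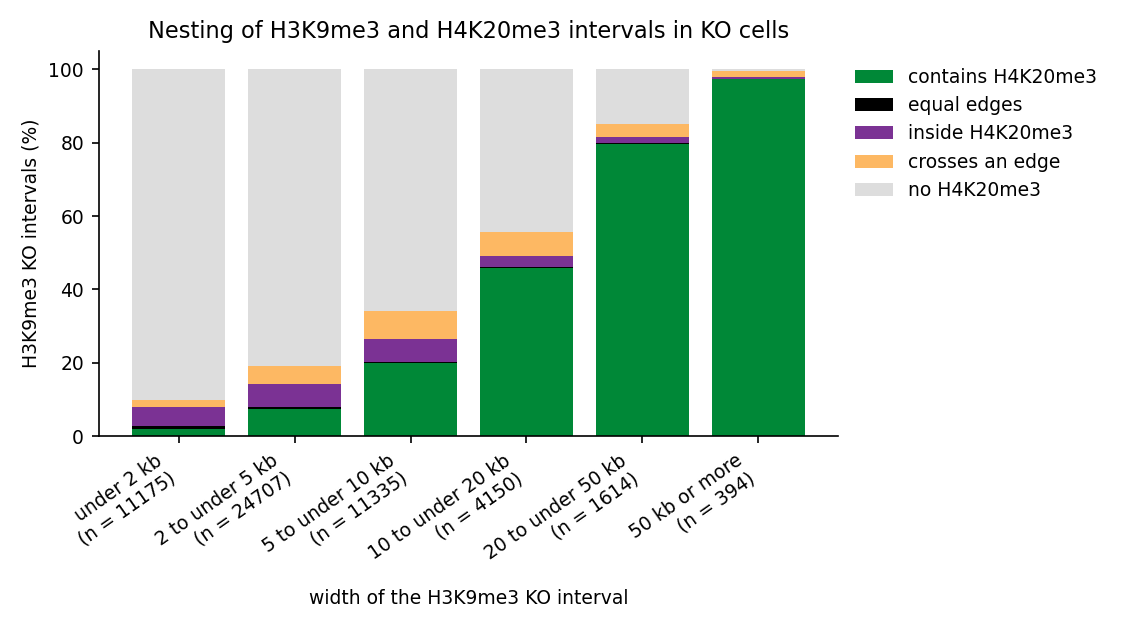
Nesting of H3K9me3 KO and H4K20me3 KO intervals by width of the H3K9me3 interval, as stacked percentages of the H3K9me3 intervals in each class (n under each bar). The part that contains whole H4K20me3 intervals rises from 1.93% to 97.2%, and the part inside H4K20me3 stays at or below 6.12%.

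H4K20me3 intervals lying inside H3K9me3 were much smaller than their hosts. Their median width was 3.6 kb and that of their host 14.2 kb, and they filled a median of 28.6% of it. The nearer of the 2 host edges was a median of 1.2 kb away, and 17.5% began or ended at the host's edge. Hosts of 20 kb or more held 40.6% of these intervals. Where H3K9me3 lay inside H4K20me3 the fit was tighter, with a median of 3.4 kb in hosts of 7.0 kb. Those filled a median of 55.0%, and 36.3% shared an edge with the host.

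Most hosts held a single interval of the other mark, and several in 1 host were more frequent for H3K9me3 hosts. The 7909 H3K9me3 hosts were 14.8% of all H3K9me3 intervals. Of these hosts 79.3% held 1 whole H4K20me3 interval, 11.7% held 2, and 250 held 5 or more, with 22 as the highest number. Of the 2790 H4K20me3 hosts 94.98% held 1 whole H3K9me3 interval and a single one held 5. A wider host has more room to hold several, and these shares were not corrected for it. H3K9me3 intervals of 50 kb or more met a median of 5 H4K20me3 intervals. H4K20me3 in wide H3K9me3 was thus often called in several pieces. H3K9me3 is continuous there by the choice of single intervals, so the 2 marks cannot be compared in this. The number of pieces also depends on the caller's gap setting, which is unknown. H4K20me3 intervals that crossed an edge reached only a little way out, with a median of 0.8 kb outside H3K9me3 and a median of 82.1% of their width on it.

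In WT cells nesting was more even. Of the overlapping WT H4K20me3 intervals 36.9% lay inside H3K9me3, 29.8% contained it and 32.7% crossed an edge. WT H4K20me3 intervals were wider, with a median of 6.0 kb against 4.0 kb in KO. Whether the widths account for the difference was not tested.

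The H3K9me3 intervals that held the most whole H4K20me3 intervals were long and lay on 5 chromosomes. The first, on chromosome 16 from 17326401 to 17546000 (219.6 kb, hg19), held 22 pieces that covered 80.8% of it. On chromosome 22 from 34073001 to 34312600, 239.6 kb held 21 pieces that covered 61.4%. The interval on chromosome 12 from 128984201 to 129257400 held 20 pieces over 84.0% of its length, and that on chromosome 7 from 67315601 to 67585600 also held 20, over 87.0%. The widest H3K9me3 interval of the list, on chromosome 11 from 78551201 to 78844000, held 19 pieces over 64.5%. In WT cells H3K9me3 covered between 53.7% and 94.5% of these 5 intervals. The WT list of H4K20me3 held nothing in 4 of them and covered 0.820% of the one on chromosome 11.

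Among H4K20me3 intervals, the one that held the most H3K9me3 lay on chromosome 9 from 137991601 to 138075200. Its 83.6 kb held 5 H3K9me3 intervals, which covered 54.1% of it, while in WT H3K9me3 covered 98.8%. The next were on chromosome 11 from 68936801 to 68984400 and on chromosome 16 from 86677601 to 86709000, with 4 each. Those on chromosome 4 from 4742801 to 4795600 and on chromosome 16 from 86964801 to 87009400 held 3 each. In all 5 the WT list of H3K9me3 covered more of the interval than the KO list did. The smallest gap was on the last one, with 26.0% in WT and 21.5% in KO. These 5 were ranked by the number of separate H3K9me3 intervals in KO, which favours places where H3K9me3 is interrupted in KO. The whole H3K9me3 list covered 254.7 Mb in WT and 305.7 Mb in KO.

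The longest unbroken stretches with both marks lay on chromosomes 1, 19 and 6. The first was on chromosome 1 from 2987401 to 3169800 (182.4 kb), and the fourth lay beside it from 2769401 to 2873400 (104.0 kb). Both were already marked in WT, where H3K9me3 covered 99.6% and 99.8% and H4K20me3 85.7% and 78.1%. The second, on chromosome 19 from 58509601 to 58657800 (148.2 kb), had 100% and 85.0% in WT. On chromosome 19 from 31837801 to 31933600 (95.8 kb) H3K9me3 covered 97.5% in WT and H4K20me3 11.9%. The stretch on chromosome 6 from 39775201 to 39887200 (112.0 kb) stood apart, since the WT lists held H3K9me3 over 11.1% of it and no H4K20me3.

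H4K20me3 stepped up at the edges of H3K9me3. For H3K9me3 intervals of 50 kb or more, 10.4% of the 200-bp windows in the last 1 kb outside an edge carried H4K20me3. Inside, it was 34.7% in the first 1 kb, 47.4% from 1 to 2 kb, 60.6% from 2 to 5 kb and 70.9% from 5 to 10 kb. Outside windows stop at the next H3K9me3 interval, which left 788 edges at -0.7 kb, 535 at -0.9 kb and 254 at -1.9 kb. Many of the outside windows thus lay in short breaks between neighbouring H3K9me3 intervals. H3K36me3 at the same edges lay on 2.20% of windows in the last 1 kb outside and on 2.77% in the first 1 kb inside. For H3K9me3 intervals of 2 to under 5 kb the step was from 5.80% outside to 13.8% inside. Along the 394 widest intervals cut into 10 equal parts, H4K20me3 covered 59.0% and 58.5% of the outer parts and between 70.0% and 73.9% of the 8 inner ones.

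At the edges of H4K20me3, H3K9me3 was common on both sides. For H4K20me3 intervals of 2 to under 5 kb, H3K9me3 lay on 61.5% of windows in the first 1 kb inside and on 42.2% in the last 1 kb outside. From 10 to 20 kb outside it still lay on 22.3%. For the 60 widest H4K20me3 intervals the values were 69.7% inside and 55.3% outside.

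**Figure D3:**
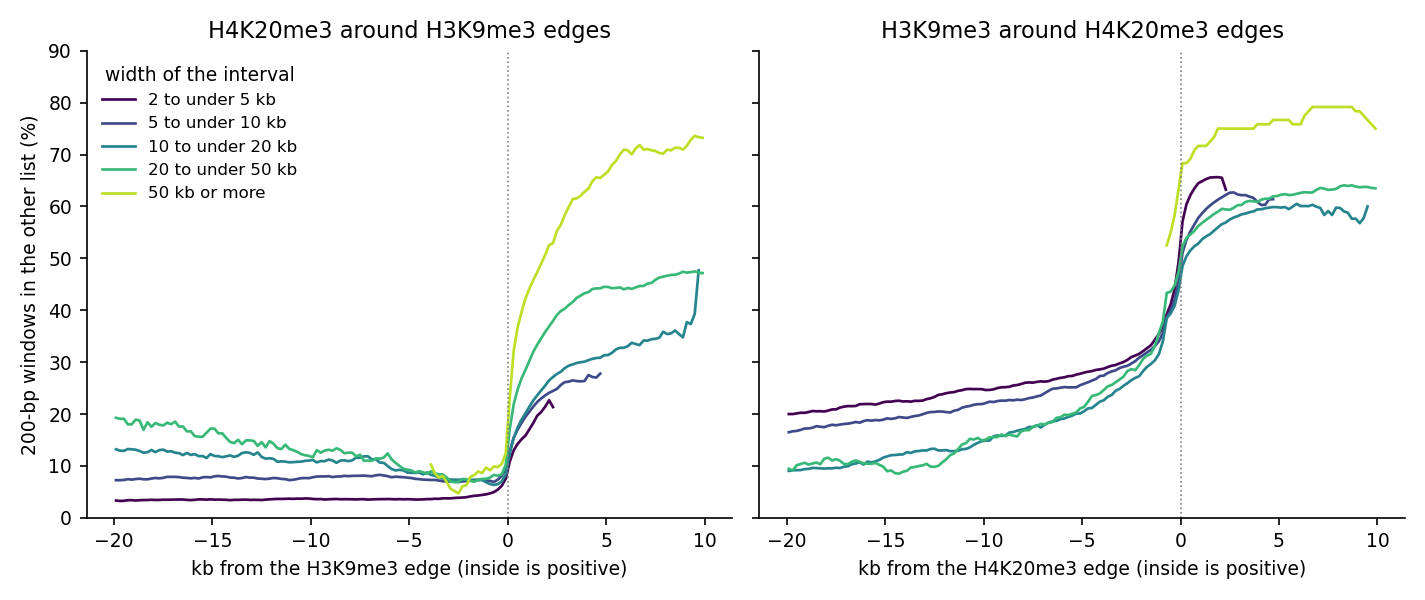
H4K20me3 KO around the edges of H3K9me3 KO intervals (left) and H3K9me3 KO around the edges of H4K20me3 KO intervals (right), as the percentage of 200-bp windows in the other list by distance from the edge in kb, inside positive, with 1 line per width class. Windows inside stop at the middle of the interval and windows outside stop at the next interval of the same list, and points with fewer than 100 edges are left out, so the last points of a line rest on few edges. The left lines step up at the edge, for the widest class from 10.4% in the last 1 kb outside to 34.7% in the first 1 kb inside.

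The 7964 H4K20me3 intervals that did not overlap H3K9me3 (31.5% of the list) lay nearer to it than active marks did. Their median distance to the nearest H3K9me3 interval was 40.0 kb, with quartiles of 13.2 kb and 100.65 kb. Non-overlapping H3K4me3 intervals of KO cells had a median of 68.4 kb, H3K36me3 78.8 kb and MINA 68.4 kb. Every 200-bp window outside H3K9me3, taken over the whole span, had a median of 66.8 kb. Direct neighbours were few. Within 1 kb lay 96 H4K20me3 intervals (1.21%), within 5 kb 11.2% (10.5% to 11.9%), within 20 kb 33.0% and within 100 kb 74.8%, while 93 lay 500 kb or more away. Of the outside windows 3.42% lay within 1 kb, 10.5% within 5 kb and 24.7% within 20 kb. H4K20me3 intervals were thus less frequent than these windows in the first 1 kb and more frequent by 20 kb. The comparison is uneven, since a window is 200 bp and these intervals had a median of 3.8 kb. The windows also take in the largest gap of each chromosome, 109.6 Mb together, where neither mark was called. The part of width and gaps in these differences was not tested. For H3K4me3 the shares within 5 kb and 100 kb were 6.36% and 61.8%. In the other direction, H3K9me3 intervals without H4K20me3 lay a median of 28.0 kb from the nearest H4K20me3. In WT the 2984 non-overlapping H4K20me3 intervals had a median of 19.4 kb to H3K9me3 of WT cells, which is less than in KO. The WT list of H3K9me3 held 45805 intervals.

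Off H3K9me3, the H4K20me3 intervals often overlapped active marks by at least 1 bp. By length, H3K4me3 of KO cells covered 26.8% of these intervals and 3.28% of those on H3K9me3. For H3K36me3 the covered length was 13.3% and 4.63%. The shares that follow count intervals with any overlap. H3K4me3 of KO cells overlapped 45.3% of the non-overlapping ones (44.2% to 46.3%) and 5.27% of those on H3K9me3 (4.95% to 5.62%). For H3K36me3 the shares were 23.8% and 5.12%, and for MINA, the antibody against mdig used here in cells without it, 25.6% and 2.70%. None of these 3 lists met 3922 of the 7964, or 49.2%, against 15728 of the 17354 on H3K9me3, or 90.6%.

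Beyond 1 kb, the share on H3K4me3 grew with the distance from H3K9me3. Of the 96 nearest it was 30.2% (21.9% to 40.0%), and then 27.2% of the 797 intervals at 1 to under 5 kb (24.3% to 30.4%), 37.1% at 5 to under 20 kb, 45.9% at 20 to under 100 kb and 58.9% at 100 to under 500 kb (56.7% to 61.1%). Of the 93 farthest it was 62.4% (52.2% to 71.5%). H3K36me3 went from 12.8% at 1 to under 5 kb to 31.8% at 100 to under 500 kb, and MINA from 14.6% to 35.2%, with lower shares of 24.7% and 29.0% among the 93 farthest. H3K9me3 of WT cells went the other way, from 38.5% of the nearest to 9.68% of the farthest, against 83.8% of the H4K20me3 intervals on KO H3K9me3. H3K4me3 and H3K36me3 themselves lay farther from H3K9me3, as given above, and the part of that in this order was not tested.

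**Figure D4:**
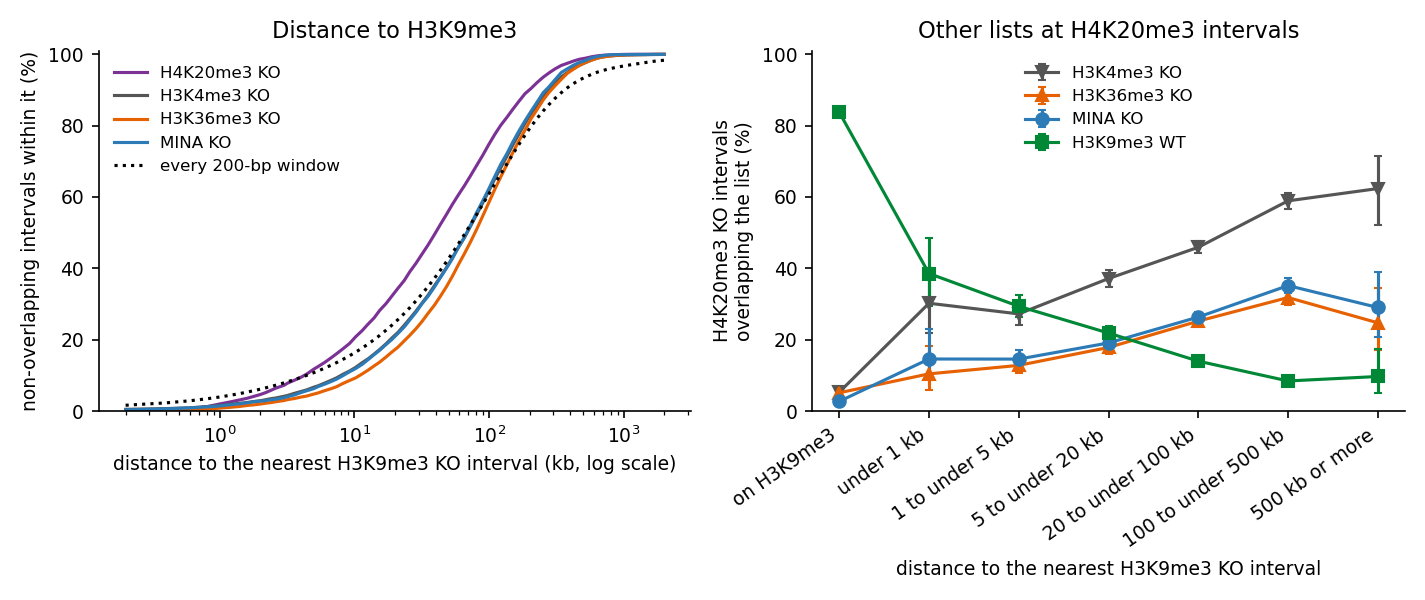
Left, cumulative percentage of non-overlapping intervals by distance to the nearest H3K9me3 KO interval (kb, log scale) for 4 KO lists and for every 200-bp window outside H3K9me3, with H4K20me3 to the left of the others beyond 5 kb. Right, percentage of H4K20me3 KO intervals that overlap 4 other lists, for those on H3K9me3 and by distance from it, with Wilson 95% intervals. H3K4me3 goes from 5.27% on H3K9me3 to 62.4% at 500 kb or more.

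The widest H4K20me3 intervals without H3K9me3 were of several kinds. On chromosome 6 lay 3 of the 5. The first, from 41355801 to 41500800 (145.0 kb), was covered by H3K4me3 for 15.03% and by MINA for 20.8% of its length in KO. The second, from 37662601 to 37742600 (80.0 kb), had 15.25% and 32.5%. The fifth, from 42080601 to 42135200 (54.6 kb), had 31.5% and 51.3%, and H3K36me3 of KO cells covered 57.9% of it. The third, on chromosome 20 from 48015401 to 48088200 (72.8 kb), met none of the other 9 lists. The fourth, on chromosome 7 from 57262401 to 57321000 (58.6 kb), met H3K9me3 in the WT list, which covered 96.2% of it, and no other list. The WT list of H4K20me3 held nothing in these 5. The 3 on chromosome 6, and the doubly marked stretch of that chromosome given above, all lay between 37662601 and 42135200. Whether they are independent of each other, or of the coverage of that part in KO, was not tested.

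The widest H3K9me3 intervals without H4K20me3 were shorter, at 41.8 to 51.8 kb. The widest was on chromosome 3 (5505601 to 5557400) and the next on chromosome 14 (80069201 to 80119200). The others lay on chromosome 20 from 15367201 to 15412000, on chromosome 11 from 79503801 to 79546400 and again on chromosome 3 (7783401 to 7825200). The first pair, of 51.8 kb and 50 kb, were the only 2 of the widest class without H4K20me3. No list other than H3K9me3 met any of the 5, and H3K9me3 of WT cells covered between 22% and 72.3% of them.

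The state of the same chromatin in WT differed between doubly and singly marked parts. Of the 90.8 Mb with both marks in KO, 63.3% had H3K9me3 alone in WT, 18.2% had both, 17.4% neither and 1.13% H4K20me3 alone. Of the 58.8 Mb with H4K20me3 alone in KO, 63.3% had neither mark in WT, 17.0% H4K20me3 alone, 14.3% H3K9me3 alone and 5.33% both. Of the 214.9 Mb with H3K9me3 alone in KO, 62.0% had neither in WT and 35.2% H3K9me3 alone. H3K9me3 that carried H4K20me3 in KO thus had H3K9me3 in WT over 81.5% of its length, and H3K9me3 without it over 37.9%. For all H3K9me3 of KO cells it was 50.8%. Doubly marked H3K9me3 lay more in wide intervals, and the WT cover was 32.8% in the narrowest class and 78.5% in the widest. The part of width in the difference was not tested.

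Chromosomes differed widely in how much of their H3K9me3 carried H4K20me3, with a range from 9.85% to 68.9% of the length and a median of 25.7%. Chromosome 19, the home of many KRAB zinc finger genes, was highest at 68.9%, followed by chromosome 22 with 56.8% and chromosome 7 with 53.3%. Chromosome X was lowest at 9.85%, below chromosome 18 with 11.5% and chromosome 3 with 13.4%. H4K20me3 itself was on H3K9me3 in most places on X, where 83.0% of 846 intervals overlapped (80.3% to 85.4%). There 5058 mostly narrow H3K9me3 intervals (median 2.8 kb) met few H4K20me3 intervals. The share of H4K20me3 intervals on H3K9me3 was lowest on chromosomes 9, 15 and 1, at 54.0%, 54.0% and 55.9%.

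Wide H3K9me3 was covered more than narrow H3K9me3 on every one of the 23 chromosomes. For intervals of 20 kb or more the covered length ran from 18.1% on chromosome 3 to 78.8% on chromosome 19. For narrower ones it ran from 9.20% on X to 52.4% on chromosome 19. The contrast was smallest on chromosome 3, with 18.1% against 12.7%, and large on chromosome 13, with 68.0% against 15.8%, although the wide part of chromosome 13 was only 19 intervals. Without chromosome 19, which held 67 of the 394 widest intervals, H4K20me3 covered 9.25% of the narrowest class and 70.2% of the widest. These values are for intervals as deposited. When intervals within 5 kb were joined, the covered length at 20 kb or more over all chromosomes fell from 56.0% to 29.2%. Single chromosomes were not compared under that setting.

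**Figure D5:**
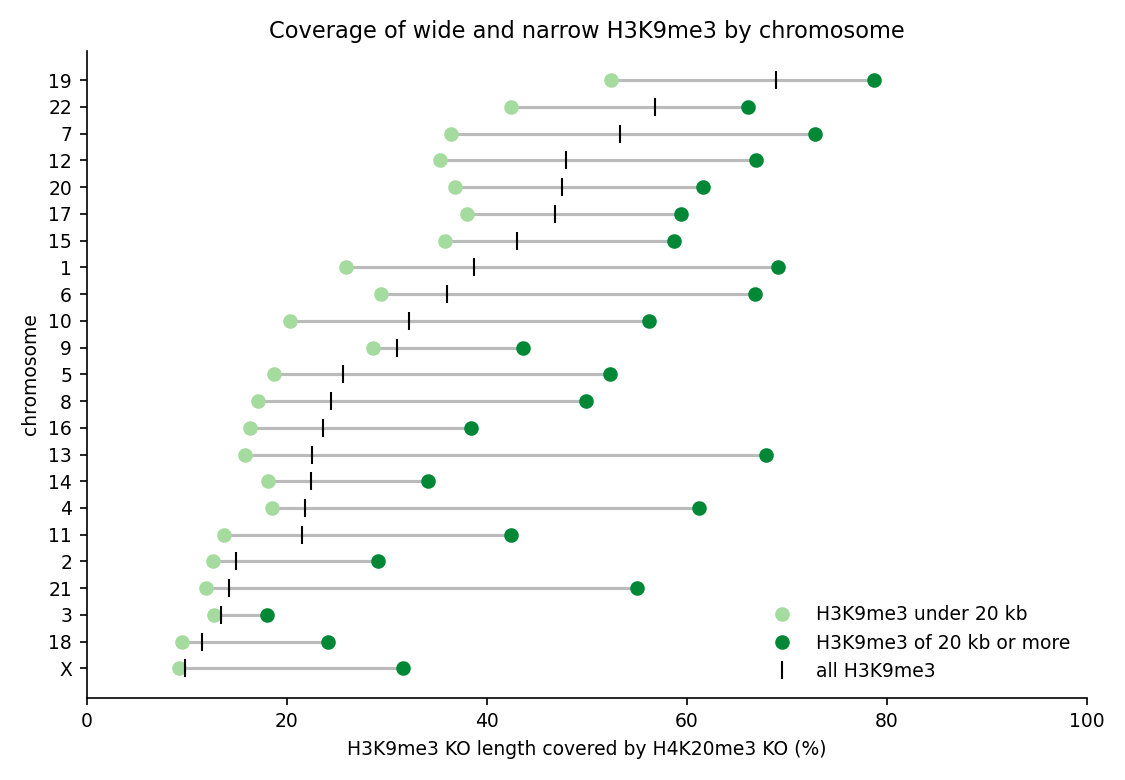
Percentage of H3K9me3 KO length covered by H4K20me3 KO on each chromosome, for H3K9me3 intervals under 20 kb (light), of 20 kb or more (dark) and all (black line), ordered by the value for all. With intervals as deposited, the dark point lies to the right of the light one on all 23 chromosomes. The values for all H3K9me3 run from 9.85% on X to 68.9% on chromosome 19.

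Over all chromosomes together, the ends of the span held more of both marks. The span runs between the outermost intervals, so an end of it need not be a chromosome end. In the outer 5 Mb at each end of the span H4K20me3 covered 57.4% of the H3K9me3 length, against 23.6% in the rest outside the 5 Mb beside the largest gap of each chromosome. The share in the outer part was the higher one on 21 of 23 chromosomes, the exceptions being 3 and 17. H4K20me3 covered 16.4% of the outer 5 Mb and 4.06% of the rest, and H3K9me3 18.4% and 9.73%. For H4K20me3 this too held on 21 of 23 chromosomes. The exceptions were chromosome 17, with 7.64% in the outer part and 8.90% in the rest, and X, with 0.684% and 1.52%. Beside the largest gap, 38.2% of the H3K9me3 length carried H4K20me3, and 78.0% of the H4K20me3 length lay on H3K9me3.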

How the data were processed

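The authors aligned reads with BWA to hg19 and called enriched intervals with SICER version 1.1, per the submitters' processing notes. The deposited values are other than a signal: start and end positions in bp, 1 list per ChIP library, with no score. The deposited merged list of 92233 regions was not used. The sources used here do not give the window, gap or false discovery settings, nor depth scaling or input subtraction. A list from more reads can hold more and wider intervals. Every position lay on a 200-bp grid and intervals of a list lay at least 800 bp apart. Depth is unknown.

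Overlap, nesting and edge distance on chromosomes 1 to 22 and X were computed in Python 3.11.15 (scipy 1.17.1 for intervals of shares, numpy 2.4.6). Counts of overlapping and nested intervals equalled those of bedtools 2.31.1. The counting was checked on simulated lists. Regions were named by rank, 5 for each kind, and chromosomes as the 3 highest and 3 lowest, X and 19, leaving out chromosome 8 for regions. Members, classes and rules were chosen with earlier results of these data known. Coordinates are 1-based on hg19. No annotation or genome of that build was used here, so no gene was assigned and no sequence is shown. Alternatives merged intervals within 5 kb, changed chromosomes, minimum width, overlap and overhang, or measured between centres. Leaving out chromosome 19 was added after seeing the data.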

Additional observations from a re-analysis of the deposited data

Results flagged for a closer look

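Intervals on chromosome Y entered no comparison. The H3K9me3 list of KO cells held 26 of them and the H4K20me3 list 18, of which 16 overlapped H3K9me3. The WT lists held 20 for H3K9me3 and 2 for H4K20me3, and no other list held more than 1. They were called in a part of the files that was otherwise not used, and whether their reads come from chromosome Y was not tested.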

How the results depend on the processing

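No paired analysis was possible because each antibody and genotype has 1 library. The 7 values followed below are, in this order, the shares of H4K20me3 and of H3K9me3 intervals that overlap, the covered length of H3K9me3 at 20 kb or more and under 2 kb, the shares of H4K20me3 and of H3K9me3 intervals wholly inside the other (equal edges included), and the median distance. As reported they are 68.5%, 25.8%, 56.0%, 9.39%, 46.3%, 6.09% and 40.0 kb. Of 41 alternative values 6 stayed within the 95% interval of the reported value and 35 did not, 6 of them by over 1.5 times. Merging within 5 kb gave 66.5%, 36.5%, 29.2%, 15.7%, 44.3%, 11.1% and 51.2 kb. Autosomes alone gave 27.1%, 56.2%, 10.2%, 45.6% and 6.60% for all except the overlap share of H4K20me3 and the distance. Intervals of at least 2 kb gave 67.2%, 26.5%, 55.5%, 44.7% and 43.4 kb for both overlap shares, wide H3K9me3, H4K20me3 inside and the distance, and no value for the class under 2 kb. The stretches of raised coverage in KO could not be cut here, so chromosomes 9, 15 and X were left out as planned for that case, which gave 69.5%, 26.6%, 56.3%, 9.84%, 47.1% and 6.35%. Without chromosome 19 the values were 67.8%, 24.9%, 52.9%, 45.6% and 5.86% for both overlap shares, wide H3K9me3 and both shares inside. An overlap of 50% of the shorter interval gave 67.9% and 25.4%, and of 50% of both 27.6% and 13.1%, since it leaves out small intervals nested in large ones. Allowing 1 kb of overhang raised the shares inside to 56.8% and 11.8%. Between centres the median distance was 44.8 kb. Wilson intervals treat neighbouring intervals and windows as independent.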

Other observations

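Along the genome the amounts of both marks went together. Over 2962 bins of 1 Mb the covered lengths of H3K9me3 and H4K20me3 in KO cells had a Spearman coefficient of 0.699 and a Pearson coefficient of 0.604. Within single chromosomes the Spearman coefficient ran from 0.447 on chromosome 21 to 0.952 on chromosome 19, with a median of 0.697. Neighbouring bins are not independent, and both lists share the genome's sequence composition, mappable length and copy number, so these are descriptions across bins and no p is given.

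The H4K20me3 intervals farthest from H3K9me3 were small, and they were picked out after their values had been seen. The farthest, of 0.8 kb on chromosome 3 from 19275601 to 19276400, lay in H3K9me3 of WT cells. Those on chromosome 13 from 95251801 to 95255000 and on chromosome 18 from 47719601 to 47720800 lay on H3K4me3 over 93.8% and 100% of their length in KO. The ones on chromosome 2 from 222862401 to 222864400 and on chromosome 9 from 73567601 to 73573000 met none of the other lists.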
